A study of Rattus norvegicus with 300 samples.

Results

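Punches of 2 regions of the rat brain, the medial preoptic area (mPOA) and the shell of the nucleus accumbens (NACShell), were compared in RNA-seq counts of all genes. Members were chosen by the region label alone, which took 30 mPOA and 30 NACShell libraries, 60 of the 300 in the series. All came from male Long Evans rats, 60 days old, that drank 1 of 6 solutions for 3 weeks. The Control group drank water and the Maltodextrin group 10 g/L of that sugar. FT was given at 13, Bupropion at 15 and Desipramine at 7.5 mg/kg/day, and the last group took Probiotics, whose dose the labels state in conflicting forms. The labels do not spell FT out; the protocols also name fluoxetine, which matches no other group. Each region held 5 libraries per treatment. Each library came from pooled punches, of a number of rats that the sources used here do not give, so the p-values measure the spread between libraries, which may be partly technical.

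The medial preoptic area lies at the front of the hypothalamus and takes part in sexual and parental behaviour, body temperature, sleep and the control of the pituitary. Its neurons make many peptide hormones and respond to sex steroids, prolactin and feeding signals; the magnocellular cells nearby make oxytocin and vasopressin and release them in the posterior pituitary. The accumbens shell is part of the ventral striatum. Most of its neurons are GABA-releasing projection neurons that carry the dopamine receptor Drd1 or Drd2, and it is known for its part in reward and motivation.

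Oxt, the oxytocin gene, and Avp, the vasopressin gene, mark the hypothalamic side and are neighbours. In RefSeq's annotation of GRCr8 they lie on chromosome 3 in opposite directions with 9949 bases between their 3′ ends; the counts were made on rn6, so no rn6 position is given. The 250 bases before each start site are shown because both genes stood among the highest differences and are transcribed toward each other. Capitals in the Oxt stretch mark TGACC and its reverse complement GGTCA, the half-site of nuclear hormone receptors, and capitals in the Avp stretch mark CACGTG, an E-box.
Oxt, chr3:138235504-138235753, plus strand: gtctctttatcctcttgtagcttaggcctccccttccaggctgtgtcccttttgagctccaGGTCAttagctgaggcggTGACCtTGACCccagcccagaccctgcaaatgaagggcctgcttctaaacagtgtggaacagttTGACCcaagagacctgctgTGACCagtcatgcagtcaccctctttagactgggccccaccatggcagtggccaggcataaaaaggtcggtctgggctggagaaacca
Avp, chr3:138248523-138248772, minus strand: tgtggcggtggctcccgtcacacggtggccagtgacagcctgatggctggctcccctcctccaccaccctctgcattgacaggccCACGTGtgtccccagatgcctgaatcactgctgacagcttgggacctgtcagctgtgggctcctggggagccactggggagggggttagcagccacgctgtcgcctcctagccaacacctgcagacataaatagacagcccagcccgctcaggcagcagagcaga
The Oxt stretch held 5 half-sites, 2 of them as TGACC repeated with a single T between, and the Avp stretch held none. On either strand TGACC was found in 35.2% of all 27457 RefSeq windows of the 250 bases before a start site, in 33.0% of those of the genes tested, in 37.3% of windows of genes more than 2-fold higher in mPOA and in 32.3% of those more than 2-fold lower. This repeat with its T was found in 7 windows of 27457. CACGTG was found in 5.79% of all windows, in 7.98% of those of the genes tested, in 5.23% of windows of the higher genes and in 7.87% of those of the lower genes. Of the other motifs searched, CAGCTG was found in 12.9% of windows of the genes tested, 18.1% of the higher and 13.8% of the lower genes, and TGACGTCA in 2.90%, 1.74% and 2.98%. A match describes these letters and is not a measured binding site.

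Total counts ran from 3807947 to 11773751 (median 8359392) in mPOA and from 571357 to 11884753 (median 7756612) in NACShell. The lowest library was NACShell Desipramine replicate 1. In principal components of log2 CPM (counts per 1000000 counted reads), the first component held 46.4% of the variance and separated the regions without overlap. FT replicate 1 stood apart from the other 4 FT libraries on the second component in both regions. NACShell Desipramine replicate 1 was the lowest of all libraries on that component, at -48.76, against -20.2 to -7.306 for the other 4 of its group. Treatments also separated: among the 9844 genes with a mean above 5 CPM, the 5 libraries of a group had a median SD of 0.158 log2, against 0.231 between the 6 treatment means in mPOA and 0.211 in NACShell. No label gives a batch, so treatment effects and differences between dissection or sequencing rounds cannot be told apart, and such rounds' part in any result below was not tested.

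**Figure D1:**
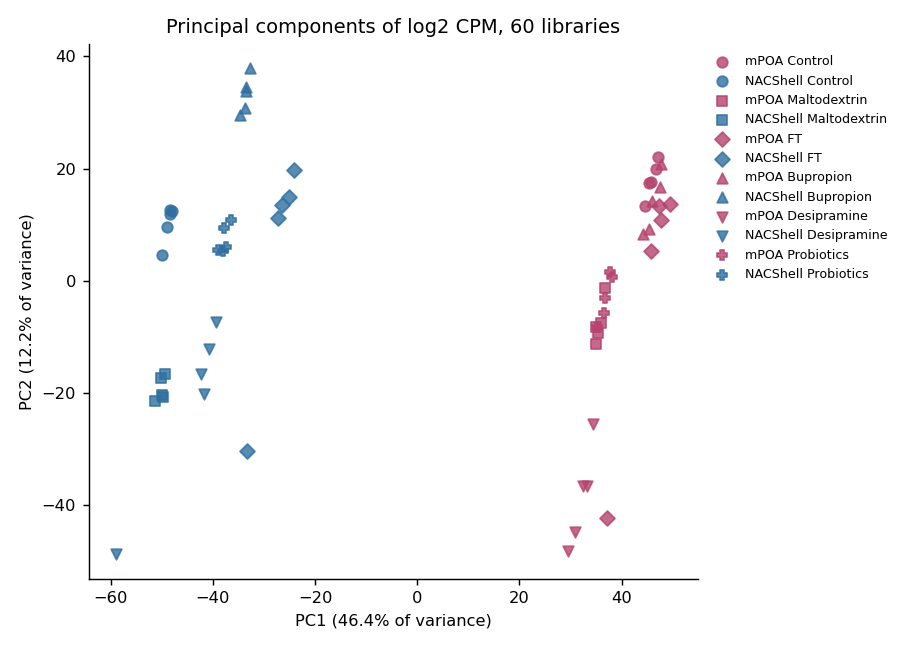
Each point is 1 of the 60 libraries on the first 2 principal components of log2 CPM (axes: component scores, with the percent of variance held), coloured by region and shaped by treatment. The regions separate on the first axis, which holds 46.4% of the variance, and FT replicate 1 sits low on the second axis in both regions. NACShell Desipramine replicate 1 sits lowest on the second axis.

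Most expressed genes differed between the regions. Of 12611 genes that passed the expression filter, 10064 (79.8%) differed on average over the 6 treatments at an adjusted p under 0.05, 5086 (40.3%) higher and 4978 (39.5%) lower in mPOA, by edgeR's quasi-likelihood test with treatment in the model. With upper-quartile scaling, which moved the median log2 difference of all genes from 0.00673 to 0.103, the split became 6254 higher and 3861 lower. Past 2-fold, 679 genes (5.38%) were higher and 647 (5.13%) lower. The sign was the same in all 6 treatments for 6305 of the called genes (50.0% of those tested), 3197 higher and 3108 lower. A stricter set was called within each of the 6 treatments with 1 sign: 1431 genes (11.3%) were higher and 1648 (13.1%) lower. In 351 genes (2.78%) every mPOA library lay above every NACShell library, and in 472 (3.74%) every one lay below, 823 (6.53%) in all. When the 5 libraries of a group were summed so that each treatment counted once per region, 3523 genes were called higher and 3466 lower, with 421 and 495 past 2-fold. Of 144 called genes named below, 22 were not called in that fit (adjusted p 0.0539 to 0.791): Cartpt, Lhx6, Lhx8, Npy1r, Cnr1, Gad2, Htr1a, Gabrb2, Ube3a, Snurf, Ier2, Chat, Slc5a7, Pvalb, Calb1, Rab11b, Wbp2, Miat, Zcchc7, Olr1266, Myl12b and Pianp. Without the 10 FT libraries 5148 genes were higher and 5008 lower, with 708 and 664 past 2-fold; without FT replicate 1 in both regions the counts were 5277, 5054, 685 and 651. With so many genes called, a call by itself says little about a gene list; the size of the difference and the overlap of libraries are given for that reason.

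Below, a difference is the log2 of mPOA over NACShell averaged over the 6 treatments with its standard error (SE), and adjusted p-values are edgeR's with Benjamini-Hochberg adjustment over all genes tested. Where 3 CPM values follow each other they are the lowest, the median and the highest of a region's 30 libraries. CPM is not divided by gene length, so levels are compared between regions and not between genes. In bulk tissue, fewer cells of a type and less RNA per cell cannot be told apart.

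The 2 hypothalamic hormones were abundant in mPOA and scarce in NACShell outside FT. Oxt stood at 299, 1025 and 2902 CPM in mPOA and at 0.506, 3.18 and 282 CPM in NACShell. Every mPOA library lay above every NACShell library, but the 5 NACShell FT libraries, at 96.6, 243, 180.3, 282 and 260.4 CPM, lay far above the other 25, of which the highest was 8.13 CPM. In mPOA the treatment means ran from 372 ± 85.3 CPM (SD, n = 5) in Maltodextrin to 2230.0 ± 494 in Bupropion. The mean difference was 7.64 (SE 0.17, adjusted p = 6.32e-40), and it was 2.83 in FT against 8.28 to 8.99 in the other 5 treatments; the variation between treatments passed its own test (adjusted p = 1.94e-16). Avp stood at 99.6, 307 and 1004 CPM in mPOA and at 0, 1.01 and 22.4 CPM in NACShell. It had the same pattern, with NACShell FT libraries at 8.95, 20.4, 17.0, 21.4 and 22.4 CPM and no library above 1.75 CPM elsewhere in NACShell. The difference was 7.72 (SE 0.14) on average and 5.39 in FT. These SEs rest on the spread within groups and not on that between treatments. With the 5 libraries of each group summed, edgeR's adjusted p was 0.00106 for Oxt and 1.73e-05 for Avp. Without the FT libraries the mean differences were 8.61 for Oxt and 8.19 for Avp. FT replicate 1 was the lowest of its 5 libraries for both genes in both regions.

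The 2 dopamine receptors ran the other way. Drd1, the stimulatory dopamine receptor of direct-pathway neurons, stood at 8.93, 18.9 and 61.9 CPM in mPOA and at 166, 244 and 342 CPM in NACShell. The groups did not overlap in any treatment. Its difference was -3.58 (SE 0.031, adjusted p = 3.06e-73); the smallest was -2.60 in Maltodextrin, where mPOA held 53.5 ± 5.36 CPM, against means of 12.4 to 23.2 CPM in the other treatments. Drd2, the inhibitory receptor of indirect-pathway neurons, stood at 7.24, 11.0 and 15.6 CPM in mPOA and at 60.3, 85.0 and 114 CPM in NACShell, a difference of -3.00 (SE 0.035). All 30 mPOA libraries lay below all 30 NACShell libraries for both receptors. The order of the 4 genes by treatment is seen in the plot of defining genes.

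**Figure D2:**
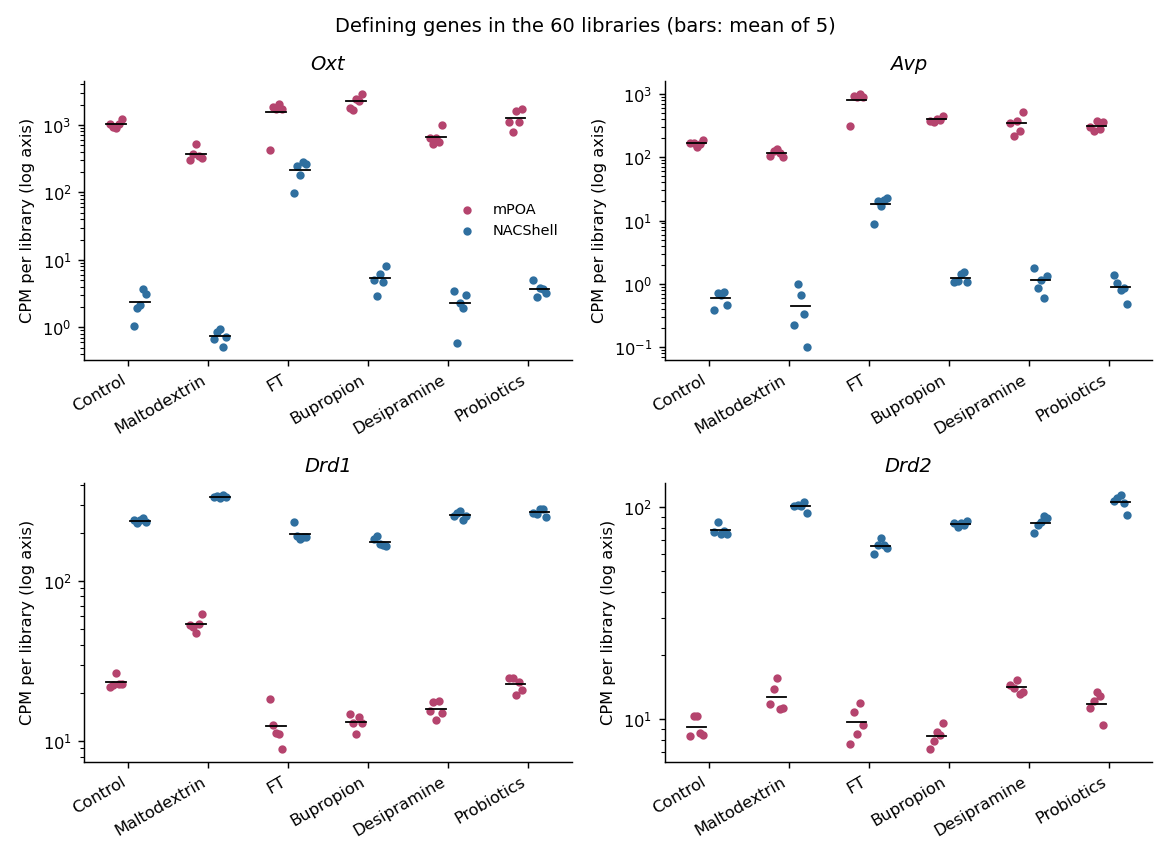
CPM of Oxt, Avp, Drd1 and Drd2 in each library (points, log axis) by treatment, in mPOA and NACShell, with the mean of 5 as a bar; 1 NACShell Maltodextrin library with 0 Avp counts is drawn at the axis floor. Oxt and Avp lie higher in mPOA and Drd1 and Drd2 lower in each treatment, and NACShell FT stands out at a mean of 212 CPM for Oxt.

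Called in all 6 treatments with 1 sign and past 2-fold were 571 genes (4.53%) higher and 595 (4.72%) lower in mPOA. The highest differences among them were mostly those of genes known from the hypothalamus. After Avp and Oxt came Nms (listed as NMS), which encodes the peptide neuromedin S of the suprachiasmatic nucleus, the developmental transcription factors Hmx2, Fezf1, Lhx5 and Six6, the imprinted gene Asb4, the stress peptide gene Ucn3, Gpr50 (a receptor related to those of melatonin), Bpifa1 and Gnrh1. Several had almost no counts in NACShell. Nms was at 0 in 23 of 30 NACShell libraries, where the 30 libraries together held 10 counts against 570 in mPOA. Hmx2 was at 0 in 23 NACShell libraries, Ucn3 in 21 and Lhx5 in 18. For such genes the fitted log2 difference depends on edgeR's prior count, so pooled rates are given: Nms was 51.8-fold, Lhx5 45.5-fold, Ucn3 34.7-fold and Hmx2 34.2-fold higher in mPOA. Asb4 is better counted. It stood at 9.98, 14.7 and 21.3 CPM in mPOA and at 0, 0.280 and 1.16 CPM in NACShell with no overlap, a difference of 5.54 (SE 0.11). Fezf1 stood at 1.97, 3.55 and 53.0 CPM in mPOA, and its 5 FT libraries, with a mean of 38.5 ± 8.40 CPM, lay above the other 25, whose treatment means were 2.31 to 6.15 CPM.

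The lowest differences combined striatal and forebrain genes. Arpp21, a phosphoprotein regulated by cyclic AMP and abundant in striatal projection neurons, stood at 79.8, 161 and 388 CPM in mPOA and 1684, 3561 and 6445 CPM in NACShell, a difference of -4.44 (SE 0.031). Its libraries did not overlap, and the same held for the next 3 genes. Scn4b, a sodium channel beta subunit, differed by -4.07 (SE 0.027), with 5.14, 13.9 and 26.5 CPM in mPOA against 138, 224 and 278 CPM in NACShell. Prss12, the secreted protease neurotrypsin, differed by -4.67 (SE 0.049), with 0.703, 1.81 and 3.16 CPM against 23.1, 45.2 and 63.4 CPM. Tbc1d10c, a GTPase-activating protein, differed by -4.16 (SE 0.079). Tfap2d, a transcription factor, Cyp26a1, which breaks down retinoic acid, Bhmt, a methyltransferase of homocysteine, Crip3 and Sln, which inhibits the calcium pump of muscle, were lower at medians of 0.0453 to 0.465 CPM in mPOA and of 2.96 to 7.27 CPM in NACShell. The remaining 3 of the 12 were Slc17a7, Adora2a and Ppp1r1b, described with their groups.

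**Figure D3:**
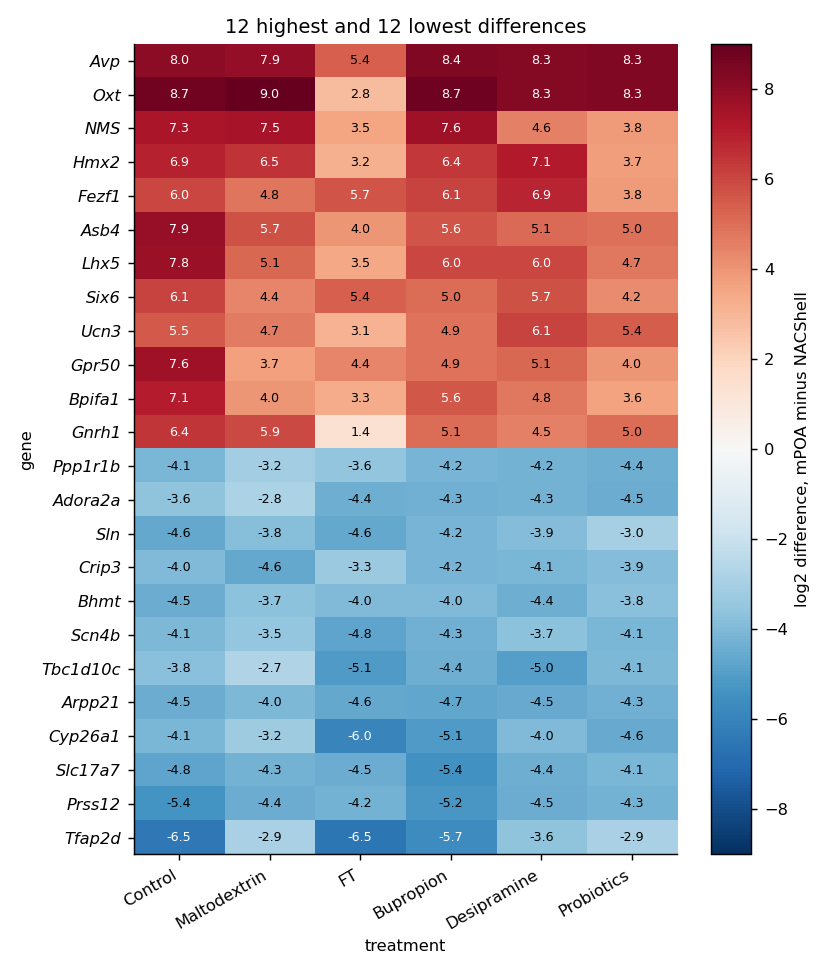
Log2 difference (mPOA minus NACShell, colour and printed value) within each treatment (columns) for the 12 highest and 12 lowest genes (rows) among those called in all 6 treatments and past 2-fold. Every cell of a gene has 1 sign, and Oxt, Avp and Gnrh1 are lower in FT than in any other treatment.

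Of the 33 hypothalamic peptide and secretory genes listed, 30 were tested; 23 were higher in mPOA, 6 lower and 1 not called, with 17 past 2-fold higher and 4 past 2-fold lower. Their median difference was 1.86, against 0.007 over all genes tested. Gal, the galanin gene of preoptic neurons active in sleep and parenting, stood at 36.7, 66.0 and 128 CPM in mPOA and 0.674, 2.72 and 5.79 CPM in NACShell, a difference of 4.58 (SE 0.072). Trh, the thyrotropin-releasing hormone gene, stood at 157, 183 and 249 CPM and 7.06, 13.0 and 24.5 CPM, a difference of 3.77 (SE 0.040). Libraries did not overlap for either, nor for Gnrh1, Adcyap1, Pnoc, Hcrt and Scg2. Gnrh1, the gene of the hormone that drives the gonadal axis, stood at 18.4, 59.9 and 86.9 CPM in mPOA and 0.129, 1.79 and 9.42 CPM in NACShell. Its difference of 4.71 (SE 0.059) ran from 1.37 in FT to 6.42 in Control (adjusted p for the variation = 1.54e-29). Adcyap1, the gene of the peptide PACAP, stood at 16.7, 23.7 and 40.2 CPM in mPOA and 1.34, 3.75 and 5.95 CPM in NACShell. Scg2, a granin of secretory vesicles, stood at 1305, 1741 and 2378 CPM and 399, 638 and 713 CPM. Crh, the corticotropin-releasing hormone gene, was higher by 1.79 (SE 0.071) with overlapping libraries.

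The other 6 called peptide genes were lower in mPOA. Nmb, the neuromedin B gene, stood at 3.04, 5.84 and 8.02 CPM in mPOA and 14.3, 27.5 and 40.0 CPM in NACShell without overlap, a difference of -2.23 (SE 0.045). Tac3, the neurokinin B gene, differed by -1.32 (SE 0.038), also without overlap. Cartpt, a peptide gene of both striatum and hypothalamus, was lower, at -1.12 (SE 0.042) on average, but FT differed in sign: mPOA held 686 ± 65.3 CPM in FT and means of 50.4 to 86.8 CPM in the other treatments. Sst, the somatostatin gene, was not called, at 139.7, 267 and 502 CPM in mPOA and 142, 278 and 426 CPM in NACShell.

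**Figure D4:**
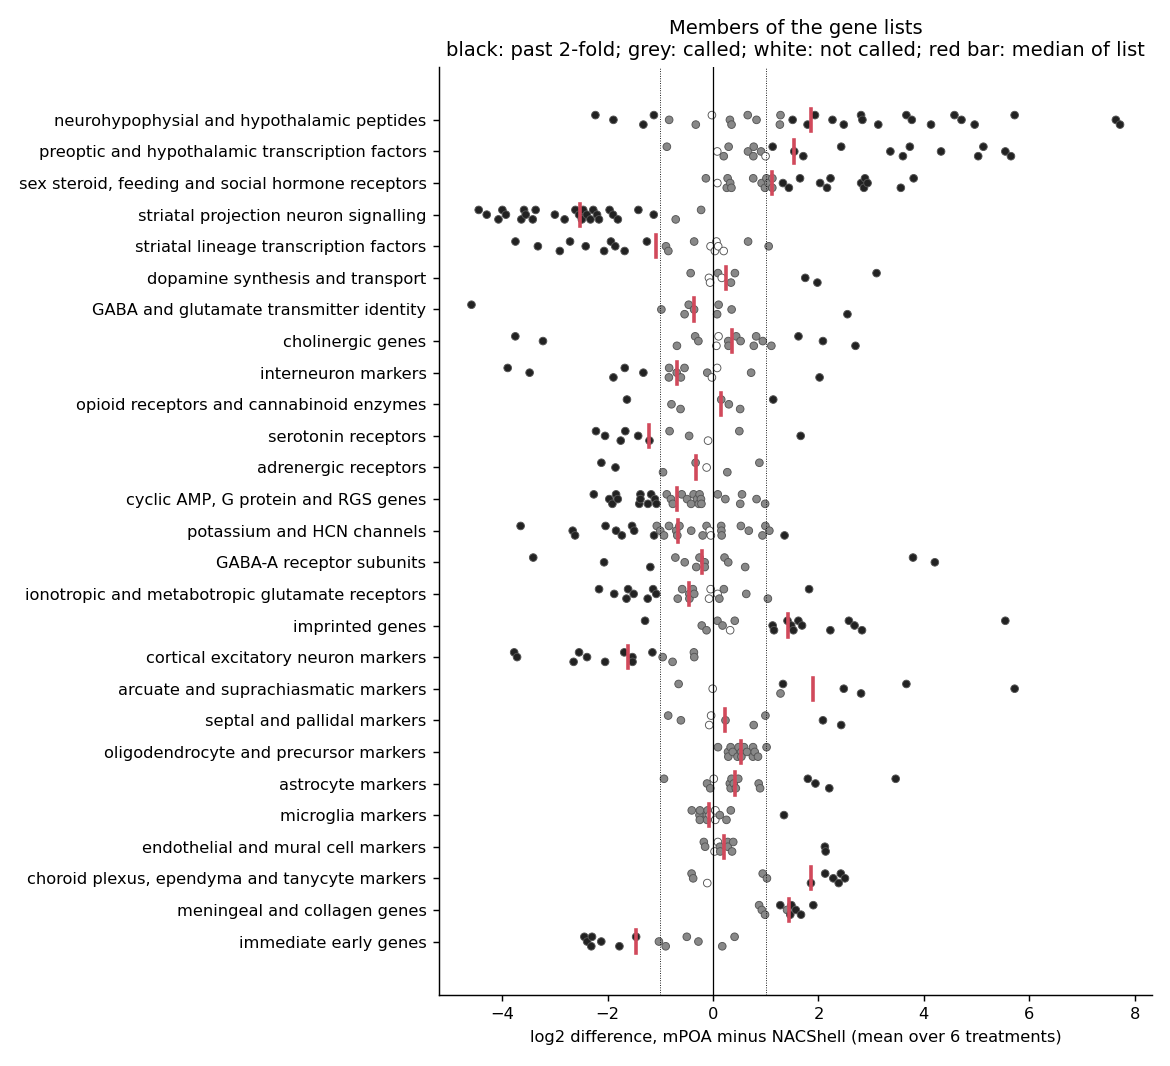
Each point is 1 tested member of a gene list (rows), placed by its log2 difference between mPOA and NACShell averaged over 6 treatments; black points passed the 2-fold test, grey ones were called and white ones were not, and red bars are list medians. Peptide, hormone-receptor and imprinted lists have medians of 1.86, 1.13 and 1.41, and striatal signalling genes a median of -2.51.

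Of 31 preoptic and hypothalamic transcription factors, 28 were in the table and 21 were tested; 18 were higher, 1 lower and 2 not called, with 12 past 2-fold higher, and the median was 1.54. Sim1, which specifies magnocellular neurons, stood at 2.53, 7.98 and 23.6 CPM in mPOA and 0, 0.616 and 3.91 CPM in NACShell, a difference of 3.36 (SE 0.10) with overlap between libraries. Nkx2-1, which patterns the ventral forebrain and hypothalamus, stood at 7.14, 9.88 and 23.6 CPM and 0, 2.03 and 3.26 CPM without overlap, a difference of 2.43 (SE 0.075). Zic2 differed by 1.54 (SE 0.058). Arnt2, the partner of Sim1 and a factor expressed widely in brain, was lower, at -0.88 (SE 0.017). Isl1, which is active in both striatal and hypothalamic lineages, was not called, at 7.60, 11.9 and 22.0 CPM in mPOA and 5.82, 11.8 and 17.5 CPM in NACShell. Lhx6 and Lhx8, which specify neurons born in the medial ganglionic eminence and preoptic area, were higher on average by 0.77 and 1.13 but lower in FT, at -1.59 and -1.73 on the log2 scale.

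Receptors for sex steroids, feeding and social hormones were mostly higher in mPOA: of 25 tested, 23 were higher, 1 lower and 1 not called, 12 passed 2-fold and none passed it lower; the median was 1.13. Calcr, the calcitonin receptor, which preoptic neurons of parenting express, stood at 149, 204 and 256 CPM in mPOA and 5.27, 19.9 and 31.3 CPM in NACShell. Its libraries did not overlap and the difference was 3.56 (SE 0.029, adjusted p = 1.27e-74). Esr1, estrogen receptor alpha, stood at 1.31, 8.52 and 14.2 CPM in mPOA and 0, 1.21 and 2.90 CPM in NACShell. Its difference was 2.86 (SE 0.11), and its ranges overlapped. Prlr, the prolactin receptor, differed by 3.81 (SE 0.11), the galanin receptor gene Galr1 by 2.81 (SE 0.090) and Ntsr1, a neurotensin receptor, by 2.16 (SE 0.064), each without overlap. Pgr, the progesterone receptor, was higher by 1.01 (SE 0.046) and Esr2, estrogen receptor beta, by 0.76 (SE 0.14). Npy1r, a receptor for neuropeptide Y, was lower, at -0.13 (SE 0.033), and Crhr1, a receptor for corticotropin-releasing hormone, was not called at 0.082 (SE 0.077). The oxytocin receptor gene Oxtr did not pass the expression filter.

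The 28 genes of striatal projection neuron signalling were all lower in mPOA, 26 of them past 2-fold, and in 24 no mPOA library reached the lowest NACShell library. The median difference was -2.51 and kept between -2.70 and -2.38 in the 6 treatments. Adora2a, the adenosine receptor of indirect-pathway neurons, stood at 4.49, 7.91 and 18.2 CPM in mPOA and 104, 129 and 174 CPM in NACShell, a difference of -3.995 (SE 0.032). Ppp1r1b, which encodes the dopamine-regulated phosphatase inhibitor DARPP-32, stood at 26.4, 37.9 and 71.5 CPM and 402, 619.5 and 1076 CPM, a difference of -3.93 (SE 0.051). Pde10a, a phosphodiesterase of projection neurons, differed by -3.36 (SE 0.024) and Gng7, a G protein subunit that couples Drd1, by -3.42 (SE 0.032). The peptide genes of the 2 projection pathways were lower as well. Penk, the enkephalin precursor, stood at 198, 242 and 375 CPM in mPOA and 983, 1361 and 1978 CPM in NACShell, a difference of -2.49 (SE 0.038). Tac1, the substance P precursor, differed by -2.61 (SE 0.034). Pdyn, the dynorphin precursor, differed by -2.81 (SE 0.023) on average and by -0.79 in FT. The smallest differences were those of Rasgrp2, an exchange factor, at -0.71 (SE 0.042) and of Cnr1, the cannabinoid receptor, at -0.23 (SE 0.022); Cnr1 was called higher in 1 treatment and lower in 3.

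Among 20 striatal lineage transcription factors tested, 13 were lower in mPOA, 2 higher and 5 not called, with 10 past 2-fold lower and a median of -1.07. Meis2 stood at 10.8, 24.5 and 42.2 CPM in mPOA and 202, 301 and 380.1 CPM in NACShell, a difference of -3.75 (SE 0.029). Bcl11b, which encodes CTIP2, a factor needed by projection neurons, differed by -3.32 (SE 0.052), Foxp1 by -2.41 (SE 0.031) and the retinoic acid receptor gene Rarb by -2.91 (SE 0.044). These 4 did not overlap between regions. Dlx1 and Zfp521 were the 2 that were higher, by 1.06 (SE 0.027) and 0.67 (SE 0.037). Six3, Dlx2, Ikzf1 and Ikzf2 were among those not called.

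The vesicular glutamate transporters divided between the regions. Slc17a6, the transporter of subcortical glutamate neurons (VGLUT2), stood at 73.8, 122 and 334 CPM in mPOA and 14.2, 21.9 and 35.5 CPM in NACShell, a difference of 2.55 (SE 0.035). Slc17a7, that of cortical ones (VGLUT1), stood at 4.13, 6.99 and 12.1 CPM in mPOA and 87.9, 159 and 289 CPM in NACShell, a difference of -4.58 (SE 0.048). Neither overlapped. The accumbens holds few cortical-type glutamate neurons, so markers of these cells were read beside Slc17a7: all 14 tested were lower in mPOA, 10 past 2-fold, with a median of -1.61. Their summed level was 151.6 to 269.2 CPM in mPOA and 470.6 to 629.4 CPM in NACShell, and none was at 0 in every NACShell library. In NACShell the markers stood at a median of 46.0% of their mean in the 30 libraries labelled PLC in the series, with the highest, 195%, for Tle4, which striatum also expresses. Neurod6 stood at 1.50, 3.93 and 10.0 CPM in mPOA and 32.3, 56.4 and 78.3 CPM in NACShell. The part of such cells in the genes lower in mPOA was not tested. Gad1 and Gad2, the enzymes that make GABA, differed little, at -0.36 (SE 0.021) and -0.46 (SE 0.023).

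Genes of dopamine synthesis were higher in mPOA. Th, tyrosine hydroxylase, stood at 9.08, 16.7 and 45.9 CPM in mPOA and 0.706, 2.17 and 3.39 CPM in NACShell, a difference of 3.10 (SE 0.072). Ddc, the next enzyme, stood at 28.9, 39.0 and 46.3 CPM and 6.67, 10.7 and 16.6 CPM, a difference of 1.75 (SE 0.041). Neither overlapped, and Gch1, which makes the cofactor of Th, was higher by 1.98 (SE 0.20). Of 10 tested genes of dopamine synthesis, transport and breakdown, 6 were higher, 1 lower and 3 not called, where 40.3% of all genes tested were called higher. The 3 not called were Slc6a3, the dopamine transporter, Slc18a2, the vesicular transporter, and Maoa, a monoamine oxidase. Without the FT libraries the split was 5 higher and 4 lower, with Slc18a2 called lower at -0.11 and Maoa at -0.084.

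Serotonin receptor genes were mostly lower in mPOA. Of 11 serotonin receptor genes tested, 8 were lower, 2 higher and 1 not called, with 6 past 2-fold lower and 1 higher; the median was -1.20. Htr2c stood at 81.5, 132 and 243 CPM in mPOA and 263, 379 and 489.9 CPM in NACShell without overlap, a difference of -1.42 (SE 0.030). Htr6 differed by -2.22 (SE 0.088) and Htr2a by -1.66 (SE 0.072), also without overlap. Htr7 was the one past 2-fold higher, at 1.39, 5.71 and 8.88 CPM in mPOA and 0, 1.65 and 2.50 CPM in NACShell with overlap, a difference of 1.66 (SE 0.091). Htr1a, the inhibitory receptor, was higher by 0.50 (SE 0.076) on average, and called lower in FT at -0.44. Of 7 adrenergic receptor genes, 4 were lower, 2 higher and 1 not called, against 39.5% of all genes tested called lower; with upper-quartile scaling, and with the groups summed, 3 were lower. Adra2c was lower, at -2.12 (SE 0.072) without overlap, and Adra2b at -1.85 (SE 0.11), while Adra1b was higher by 0.88 (SE 0.12). The nociceptin receptor gene Oprl1 was higher by 1.14 (SE 0.030), as was its peptide gene Pnoc, at 26.0, 37.9 and 80.2 CPM in mPOA and 5.29, 7.34 and 16.2 CPM in NACShell. Mgll, which breaks down an endocannabinoid, was lower, at -1.63 (SE 0.034).

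GABA-A receptor subunits differed in both directions. Of 14 tested, 5 were higher and 9 lower in mPOA, with 2 past 2-fold higher and 3 past 2-fold lower. Of all genes tested, 40.3% were called higher and 39.5% lower. With upper-quartile scaling 7 subunit genes were lower, and with the groups summed 4 were higher and 6 lower. Gabre and Gabrq, which encode the epsilon and theta subunits and are known for their hypothalamic and brainstem expression, stood at 4.33, 7.87 and 13.8 and 3.24, 7.10 and 10.4 CPM in mPOA and at 0, 0.528 and 1.45 and 0, 0.477 and 1.15 CPM in NACShell. Neither overlapped, and the differences were 4.21 (SE 0.12) and 3.79 (SE 0.12). Gabrd, the delta subunit of extrasynaptic receptors, stood at 3.68, 6.41 and 11.9 CPM in mPOA and 52.4, 66.8 and 80.1 CPM in NACShell, a difference of -3.41 (SE 0.039). Gabra4, which pairs with it, differed by -2.07 (SE 0.032). Gabrb2, a beta subunit of the common synaptic receptor, was closer between the regions, at -0.26 (SE 0.037).

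Of 22 glutamate receptor genes tested, 14 were lower, 5 higher and 3 not called. With the groups summed 3 were higher. Over all genes tested, 39.5% were called lower and 40.3% higher. The NMDA receptor subunit genes Grin2a and Grin2b were lower, at -2.16 (SE 0.048) and -1.61 (SE 0.035) without overlap. Grin2d, the subunit of slow NMDA receptors, was higher by 1.82 (SE 0.10), at 1.84, 5.89 and 10.7 CPM in mPOA and 0.238, 1.96 and 5.25 CPM in NACShell. The obligatory subunit gene Grin1 was not called, at -0.075 (SE 0.053), but was called lower without FT replicate 1 at -0.071. The AMPA receptor gene Gria3 was lower, at -1.87 (SE 0.028), and the metabotropic receptor gene Grm5 at -1.64 (SE 0.035).

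Of 30 potassium and HCN channel genes, 19 were lower, 9 higher and 2 not called, with 9 past 2-fold lower and 1 higher. Among all genes tested, 39.5% were called lower and 40.3% higher. Kcnj4, an inward rectifier, stood at 1.17, 3.58 and 7.61 CPM in mPOA and 26.9, 40.4 and 50.9 CPM in NACShell, a difference of -3.65 (SE 0.056). Kcnab1, an accessory subunit, differed by -2.66 (SE 0.024) and Kcnq5, an M-current channel, by -2.62 (SE 0.035). None of the 3 overlapped. Kcnk9, a leak channel, was the one past 2-fold higher, by 1.36 (SE 0.072). In the cyclic AMP and G protein list, 24 of 30 were lower and 6 higher, none of the latter past 2-fold. Pde2a and Pde7b, phosphodiesterases, differed by -1.84 (SE 0.027) and -1.91 (SE 0.037), and Rgs7bp, an anchor of RGS proteins, by -2.26 (SE 0.033). Gnas, the stimulatory G protein gene, which is imprinted in some tissues, was higher by 0.99 (SE 0.024), at 1882, 2577 and 3779 CPM in mPOA and 1036, 1242 and 2006 CPM in NACShell.

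Imprinted genes, which are expressed from 1 parental allele and many of which are known in hypothalamus, were mostly higher in mPOA. Of 19 tested, 15 were higher, 3 lower and 1 not called, with 12 past 2-fold higher and a median of 1.41. All 15 had the same sign in the 6 treatments. The summed level of all 20 imprinted genes of the list with counts in the table, lower ones included, was 10700 to 14660 CPM in mPOA and 3428 to 5774 CPM in NACShell. Nap1l5 stood at 1859, 2603 and 3745 CPM in mPOA and 312, 371 and 829 CPM in NACShell, a difference of 2.68 (SE 0.034). Peg3, a zinc finger factor linked to maternal care, stood at 1295, 1707 and 2912 CPM and 488, 686 and 911 CPM, a difference of 1.41 (SE 0.022). Ndn, the necdin gene of the Prader-Willi region, stood at 1357, 1594 and 2074 CPM and 403, 528 and 661 CPM, a difference of 1.62 (SE 0.031). Libraries of these 3 did not overlap, nor did those of Impact at 1.16 (SE 0.019), Dlk1 at 2.58 (SE 0.052) and Igf2 at 1.48 (SE 0.030). Igf2 is also expressed by meninges and choroid plexus, whose markers are given below. The 3 lower ones were Ube3a, at -0.21 (SE 0.038), Snurf, at -0.12 (SE 0.027), and Dio3, which inactivates thyroid hormone, at -1.29 (SE 0.13).

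Of 15 interneuron markers tested, 11 were lower in mPOA, 2 higher and 2 not called, with 5 past 2-fold lower and a median of -0.69. The share called lower among all genes tested was 39.5%. Cck, the cholecystokinin gene, which cortical and amygdalar glutamate neurons express as well as interneurons, stood at 28.8, 51.2 and 70.7 CPM in mPOA and 339.7, 494 and 965 CPM in NACShell without overlap, a difference of -3.48 (SE 0.051). Calb2, the calretinin gene, ran the other way at 86.8, 128 and 183 and 16.9, 31.2 and 50.9 CPM, also without overlap, a difference of 2.02 (SE 0.034).

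Immediate early genes, which neurons induce on activity, were lower in mPOA in 11 of 13, with 7 past 2-fold and a median of -1.46. Egr1 stood at 6.30, 17.4 and 33.2 CPM in mPOA and 40.3, 82.3 and 163 CPM in NACShell, and Arc, a synaptic activity gene, at 1.22, 2.83 and 6.14 CPM and 8.84, 15.3 and 22.6 CPM. Neither overlapped, and the differences were -2.31 (SE 0.066) and -2.44 (SE 0.063). Fos, the most used of these markers, differed by -0.28 (SE 0.056) with wide overlap, and Jun and Ier2 were higher by 0.41 (SE 0.032) and 0.18 (SE 0.060).

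Glial and vascular markers also differed, where 40.3% of all genes tested were called higher in mPOA and 39.5% lower. Astrocyte markers were higher in mPOA in 12 of 16, lower in 3 and not called in 1, with 4 past 2-fold; with the groups summed 1 was lower. Agt, the angiotensinogen gene of astrocytes, stood at 630.4, 1285 and 1888 CPM in mPOA and 57.4, 105 and 325 CPM in NACShell, a difference of 3.46 (SE 0.053). Gfap, their filament protein, stood at 462, 1061 and 1475 CPM and 124, 196 and 286 CPM, a difference of 2.21 (SE 0.037). Neither overlapped, whereas the glutamate transporter gene Slc1a2 was lower, at -0.93 (SE 0.028). The 16 oligodendrocyte markers were all called higher, none past 2-fold, with a median of 0.54; only 3 had the same sign in all 6 treatments. Their summed level was 21890 to 62650 CPM in mPOA and 15970 to 33900 CPM in NACShell. Of 10 meningeal and collagen genes, 10 were higher and 6 passed 2-fold (1 with the groups summed); their sum was 1015 to 4259 CPM in mPOA and 521.6 to 759.0 CPM in NACShell, and the treatment median ran from 0.56 in FT to 2.37 in Control. Ptgds, a prostaglandin synthase of meninges, made up most of that sum in both regions. It stood at 837, 1554 and 3850.3 CPM in mPOA and 425, 516 and 669 CPM in NACShell. Of 11 choroid plexus, ependyma and tanycyte markers, 8 were higher and 2 lower (0 lower with the groups summed); Foxj1, the regulator of ependymal cilia, differed by 2.42 (SE 0.083) and Vim by 1.86 (SE 0.033) without overlap, while Ttr, the transthyretin gene of choroid plexus, differed by 1.02 (SE 0.064). Microglial markers divided into 4 higher, 7 lower and 3 not called, with a median of -0.08, which became 0.02 with upper-quartile scaling. Under that scaling 5 microglial markers were higher and 4 lower, and with the groups summed 1 was higher and 2 lower. Of 12 endothelial and mural cell markers, 8 were higher, 2 lower and 2 not called, with a median of 0.21; with the groups summed 4 were higher and 0 lower. The part of these cells in the neuronal results was not tested.

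The size of the region difference varied with treatment in 8161 genes (64.7%) by a test of 5 contrasts between treatments, and the numbers called within 1 treatment were 8437 in Control (66.9%), 8102 in Maltodextrin (64.2%), 6433 in FT (51.0%), 7710 in Bupropion (61.1%), 6890 in Desipramine (54.6%) and 6684 in Probiotics (53.0%). FT stood apart in several of the lists. Among 18 cholinergic genes tested, 11 were higher, 5 lower and 2 not called on average, against 5 higher and 4 lower with the groups summed. On average 40.3% of all genes tested were called higher and 39.5% lower. The cholinergic genes differed between treatments. Their median was 0.85 in Control, 1.02 in Maltodextrin and -0.31 in FT. Chat, the enzyme that makes acetylcholine, had a mean of 5.85 ± 1.84 CPM (SD, n = 5) in mPOA in FT, against 17.2 to 47.2 CPM in the other treatments, and of 24.2 ± 1.14 CPM in NACShell, where the others held 9.97 to 21.1 CPM. Its difference was -2.15 in FT (adjusted p = 1.36e-28) and 0.27 to 1.92 in the other 5, and the variation passed its test (adjusted p = 7.13e-37). The choline transporter gene Slc5a7 had the same order, at -1.88 in FT and 0.30 to 1.47 elsewhere. Ngfr, the low-affinity neurotrophin receptor of basal forebrain cholinergic neurons, was not called in FT at -0.18, and reached 5.06 in Maltodextrin. Pvalb, a marker of fast-spiking interneurons and pallidal neurons, was lower, at -2.11 in FT and differed by -0.72 to 0.24 elsewhere, and Calb1 was higher in FT by 1.03 and lower in Control, at -0.83. These genes were chosen after their values were seen.

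Markers of neighbouring hypothalamic nuclei moved with FT in mPOA. Pomc, the melanocortin precursor of the arcuate nucleus and pituitary, had 176, 424, 404, 437 and 433 CPM in the 5 mPOA FT libraries, against means of 2.37 to 9.95 CPM in the other 5 treatments and at most 3.40 CPM in NACShell. Its difference was 7.10 in FT and 1.03 to 2.68 elsewhere. Npvf, a peptide gene of the dorsomedial hypothalamus, had a mean of 127 ± 27.2 CPM in mPOA FT and no mean above 1.66 CPM in the other treatments; Cga, the common subunit of pituitary glycoprotein hormones, had 156 ± 11.3 CPM in mPOA FT and no mean above 0.586 CPM in the others. Hcrt, the orexin gene of the lateral hypothalamus, had 105 ± 29.1 CPM in FT and 4.51 to 8.13 CPM in the others, and Nr5a1, of the ventromedial nucleus, 6.35 ± 2.12 CPM against at most 0.241 CPM. The summed level of 9 arcuate and suprachiasmatic markers was 488.5 CPM on average in mPOA FT and 58.86 to 81.95 CPM in the other treatments; Pomc made up most of it, and the 7 tested members other than Pomc summed to 113.5 CPM, against 55.07 to 71.69 CPM. In the same 5 libraries the summed level of 9 septal and pallidal markers was 129.7 CPM, against 139.6 to 198.5 CPM, and Gnrh1 had a mean of 21.8 CPM, against 50.1 to 79.6 CPM. No source used here gives the position of single punches, so an effect of FT and a difference in the tissue taken cannot be told apart.

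**Figure D5:**
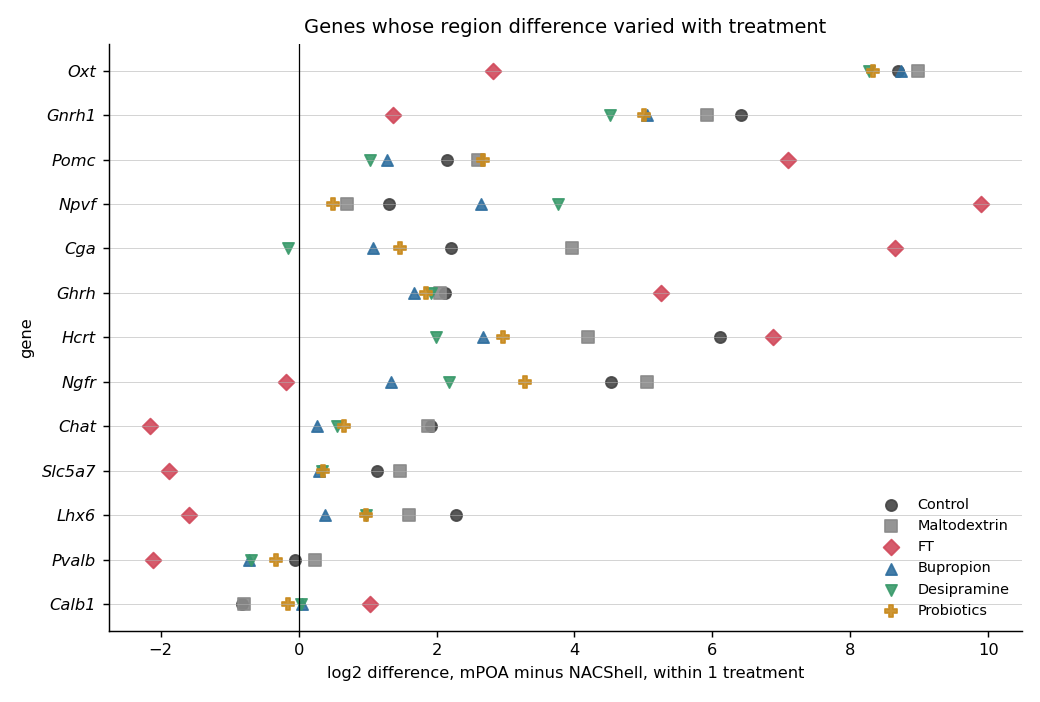
Log2 difference between mPOA and NACShell within each treatment (marker shapes) for 13 genes whose difference varied with treatment. FT is the lowest of the 6 for Oxt, Gnrh1, Ngfr, Chat, Slc5a7, Lhx6 and Pvalb and the highest for Pomc, Npvf, Cga, Ghrh, Hcrt and Calb1.

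Other genes varied in another order of treatments. In 171 genes (1.36%) the regions differed in opposite directions, called higher in 2 or more treatments and lower in 2 or more. Rab11b, a GTPase of recycling endosomes, was higher in mPOA in Control by 1.50 and lower in Bupropion, at -0.53. In Control its means were 221 ± 11.5 CPM in mPOA and 76.7 ± 2.82 CPM in NACShell, and in Bupropion 170.3 ± 6.45 and 256 ± 14.9 CPM. Wbp2, Myl12b (a myosin light chain) and Pianp had the same order of Control and Bupropion, with 2.02 and -0.66 for Wbp2. Miat, a long noncoding RNA, ran from -0.89 in Maltodextrin to 1.14 in Desipramine, and Zcchc7 from -1.20 to 0.68 in the same treatments. None of these 6 passed 2-fold on average, and for 4 of them the sign of the average rests on 1 treatment: without Control it turned for Myl12b and Pianp, without Desipramine for Miat and without Maltodextrin for Zcchc7. Samd3 ran from 0.68 in FT to a Desipramine group in which NACShell held 0 counts. S100a5, a calcium-binding protein known from the olfactory system, was at 0 in all 10 NACShell libraries of FT and Maltodextrin and at means of 4.70 to 4.98 CPM in those of Control, Bupropion and Desipramine. The olfactory receptor Olr1266 had a NACShell mean of 11.2 ± 2.07 CPM in Desipramine and was at 0 in 8 of 30 NACShell libraries.

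At the edge of the 2-fold test, B3gnt2, a glycosyltransferase gene, at -1.06 (SE 0.029) and RGD1564036 at 1.14 (SE 0.067) were just inside, and Rhpn1 at 1.20 (SE 0.094) and Cdh1, the E-cadherin gene, at 1.19 (SE 0.094) just outside.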

How the data were processed

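Whole-number read counts for 17337 gene symbols in 300 libraries were deposited by the authors as 1 table; 60 columns are used here. Per the submitters' processing notes, the tools were FastQC, STAR and HTSeq and the genome build was rn6; no source used here gives their versions. Libraries were made from total RNA with a kit that keeps strand, per the labels' protocols. No column lacked a sample. Of the symbols, 14825 matched a current and 2125 an older symbol in RefSeq's GRCr8 annotation.

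Groups were the 12 combinations of region and treatment. Genes with enough counts for edgeR's filterByExpr (12611) were scaled by TMM and fitted with edgeR 4.0.16 in R 4.3.3 by the quasi-likelihood F test, with 1 mean per group; the region difference is the average of the 6 within-treatment contrasts. Benjamini-Hochberg adjustment covered all genes tested, and calls were made under an adjusted p of 0.05. The 2-fold test is glmTreat against a log2 threshold of 1, and variation between treatments is an F test of 5 contrasts. SE is the difference divided by the root of F, and log2 CPM used a prior count of 2. No 2 libraries of a group agreed within sampling noise (lowest chi-square per degree of freedom 1.363). The fitting code was tested on simulated counts.

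Named genes follow a rule. It takes the 12 highest and 12 lowest differences past 2-fold and called in all 6 treatments, at a mean above 1 CPM. Per list it takes up to 4 of lowest p and up to 2 not past 2-fold, of highest mean CPM. Oxt, Avp, Drd1 and Drd2 are always named. Among genes called as varying between treatments, it takes the widest ranges and, of those called in opposite directions, up to 6 of smallest p. It adds 2 genes on each side of the 2-fold threshold. Other genes were chosen after their values were seen, and some genes that the rule names are not reported here. The regions, the 27 gene lists and the tests were chosen with earlier results of these data known. Alternatives covered scaling, filters, an additive model, a replicate block, DESeq2 1.42.0, each replicate or treatment left out and, added after the data were seen, FT replicate 1 left out and replicates summed per group.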

Additional observations from a re-analysis of the deposited data

Results flagged for a closer look

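In groups of 5 libraries, 1 library can lie far from the other 4. Of 60 groups examined (12 for each of the total count, Oxt, Avp, Drd1 and Drd2), 8 had such a library; chance gives about 1 in 20. For Oxt in mPOA the lowest FT library stood at 429.1 CPM and the highest Desipramine library at 985.1 CPM, each away from its group. For Avp in mPOA the lowest FT library stood at 314.9 CPM. For Drd1 the highest mPOA Control library stood at 26.64 CPM and the highest NACShell FT library at 234.9 CPM, and for Drd2 the highest NACShell Control library stood at 85.67 CPM. In total counts, mPOA Desipramine had 1 high library at 8556614 and NACShell Desipramine 1 low library at 571357. Without that low library 5108 genes were called higher in mPOA and 5004 lower.

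The region difference varied between the 6 treatments by edgeR's quasi-likelihood test, Benjamini-Hochberg adjusted, for each of the 4 defining genes: the adjusted p was 1.94e-16 for Oxt, 8.96e-08 for Avp, 4.45e-21 for Drd1 and 0.000255 for Drd2. Of the genes with the widest range between treatments, it was 1.49e-08 for Npvf, 1.03e-06 for S100a5, 8.48e-14 for Cga, 9.98e-05 for Olr1266 and 7.02e-06 for Samd3. Of those whose difference changed direction, it was 1.67e-29 for Rab11b, 1.03e-27 for Myl12b, 3.7e-26 for Pianp, 1.1e-25 for Miat, 2.29e-24 for Zcchc7 and 1.26e-23 for Wbp2. Both of these sets were picked from genes called by this same test, and those that changed direction by its smallest p. Their p-values are therefore small by selection and are not separate evidence. No source used here gives punch positions or processing rounds, and their part in these values was not tested.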

How the results depend on the processing

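For 166 results (9 counts of genes and 157 genes, the 4 defining genes among them) up to 21 alternatives were run. The 5 counts that need a test within each treatment were not recomputed under the additive model, DESeq2 or the summed groups, and 13 genes did not pass the filter on CPM above 1 and 4 the expression filter without FT. Of the counts that were recomputed, 1 moved by more than 1.5 times: with the libraries summed to 12 groups and treatment as a term, 421 genes were more than 2-fold higher in mPOA. No gene past 2-fold had the opposite sign under any alternative run. Signs turned for genes with small averages. Without Desipramine the difference was 0.0015 for Snurf and -0.057 for Miat. Without Control it was 0.041 for Calb1, -0.015 for Myl12b and -0.15 for Pianp, and without Maltodextrin 0.029 for Calb1 and 0.012 for Zcchc7. The cause was not tested. Genes not called in the report were called in some alternatives, among them Isl1 at 0.18 with upper-quartile scaling (adjusted p = 0.000733 by edgeR) and Grin1 at -0.20 without Control (adjusted p = 0.00334 by edgeR), and Ikzf2 at 0.33 without FT (adjusted p = 0.011 by edgeR), while Npy1r was not called with upper-quartile scaling. Leaving out each replicate number in turn, 4901 to 5118 genes were called higher and 4680 to 4968 lower, 654 to 671 and 621 to 636 were past 2-fold, and 6715 to 8224 varied with treatment; Oxt differed by 7.61 to 7.68, Avp by 7.61 to 7.83, Drd1 by -3.60 to -3.55 and Drd2 by -3.02 to -2.97. Shared replicate numbers were checked for pairing between regions. In 17 of 30 pairs the deviations over 8852 genes correlated above 0.1 (range -0.317 to 0.874). In 15 of 30 the best match was the same number, where each of 5 candidates would be equally likely if the numbers did not matter. This check cannot settle whether libraries are paired. No label says what a number marks, so the numbers were not taken to pair libraries. Deviations did go together in some treatments, and all 5 FT pairs lay above 0.1, which is a hint from the data and not the design. With the replicate block 5198 genes were higher, 5102 lower, 683 and 652 past 2-fold and 8944 varied with treatment. Under it Grin1 (adjusted p = 0.00102), Slc18a2 (0.0456) and Maoa (0.0374), not called in the report, were called lower by edgeR. All of them were also called lower without the FT libraries. Low counts limit genes near 0 in NACShell, such as Nms and Hmx2, whose fitted size depends on the prior count.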
